A study of Homo sapiens with 16 samples.

Results

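The HOX genes are the 39 human homeobox genes of the HOXA, HOXB, HOXC and HOXD clusters. They were taken from the deposited gene table by name, as HOX followed by a cluster letter and a paralog number, which gave 39 of its 62754 genes. The HOXA cluster holds 11 of them on chromosome 7 (HOXA3 at 27106184 to 27152581, GRCh38), HOXB 10 on chromosome 17 (48528526 to 48729178), HOXC 9 on chromosome 12 (53938765 to 54056030) and HOXD 9 on chromosome 2 (176092891 to 176190907). The RNA came from whole planar cultures differentiated towards stem-cell-derived islets of a wild-type human embryonic stem cell line, HUES8 (HUES08 in the labels), an established line.

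The data are 16 libraries of ribosome-depleted total RNA, in 8 groups of 2. One group received the solvent DMSO. The other groups each received 1 compound added to the medium, begun at stage 5 and kept until day 7 of stage 6. These were Colchicine at 10 nM, which blocks microtubule assembly, Epirizole at 2.5 uM, an anti-inflammatory drug, and Ly-294002 at 120 nM, a phosphoinositide kinase inhibitor. Moxifloxacin was given at 1.1 uM, Rottlerin at 1.23 uM, Vardenafil at 125 nM and Rimonabant at 125 nM, which are a fluoroquinolone antibiotic, a plant compound used as a kinase inhibitor, a phosphodiesterase inhibitor and a cannabinoid receptor antagonist. One library of the Ly-294002 group carries a different spelling in its title, Ly-294022. The series tested compounds predicted to act on beta-cell maturation, at 1 dose each, in 1 line and in 1 labelled batch. Nothing in the labels tells whether paired libraries are separate cultures. The p-values below therefore rest on the spread between these 16 libraries alone, and that spread may be technical.

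HOX proteins are transcription factors that bind DNA through a homeodomain and give cells a position along the head-to-tail axis of the embryo. Within a cluster the genes lie in the order of their paralog number, and genes of low number are as a rule switched on earlier and further towards the head than genes of high number, which is called collinearity. Genes with the same number in different clusters are paralogs and resemble each other more than their neighbours. Along the gut tube and its mesenchyme, low-numbered genes mark anterior levels and the highest numbers mark the hindgut and cloaca.

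The homeobox, the 180 bases that encode the homeodomain, is shown for 2 genes, read from the GENCODE 29 transcripts 5′ to 3′. HOXC4 and HOXA13 had the lowest p-values of paralogs 1 to 4 and 9 to 13 in the comparisons of single compounds with DMSO. Capitals mark codons 42 to 58 of the homeodomain, the helix that reads the DNA bases.
HOXC4: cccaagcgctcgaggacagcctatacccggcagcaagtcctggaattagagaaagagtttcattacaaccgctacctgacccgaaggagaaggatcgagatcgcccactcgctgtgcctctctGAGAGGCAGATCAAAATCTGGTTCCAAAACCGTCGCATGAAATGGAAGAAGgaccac
HOXA13: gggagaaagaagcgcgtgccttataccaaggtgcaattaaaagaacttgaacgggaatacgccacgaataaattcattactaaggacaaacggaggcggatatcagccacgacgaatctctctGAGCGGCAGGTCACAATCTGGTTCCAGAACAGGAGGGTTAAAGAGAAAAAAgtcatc
The homeoboxes of HOXC4 and HOXA13 were identical at 50.6% of their bases and differed at 89, and in the capital stretch the identity was 72.5%. HOXC4 matched its paralogs HOXB4, HOXA4 and HOXD4 at 81.7%, 78.3% and 75.6%. HOXA13 matched its paralog HOXC13 at 76.1%. The longest run of identical bases shared by the transcripts of 2 HOX genes of different clusters was 62 (HOXB3 with HOXD3), and 1 of 569 such pairs had a run longer than 50. Within clusters 6 of 172 pairs did, among them HOXC4 with HOXC6 at 484, HOXB3 with HOXB6 at 434 and HOXB3 with HOXB4 at 65, so counts of such neighbours are uncertain where reads fall in those stretches.

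Total counts per library ran from 23294377 to 30701868. A gene with 0 reads in a library could still have a level of up to 3 reads, or 0.0977 to 0.129 CPM depending on the library, and this limit covers counting error only. Levels are CPM, the counts relative to library size after TMM scaling, and levels of different genes are compared as RPKM, the CPM per kilobase of GENCODE 29 exon. The library Rimonabant 2 stood apart in base composition: its median log2 deviation in the 10% of genes richest in GC minus that in the 10% poorest was 0.70, against -0.36 to 0.18 in the other 15. The 2 DMSO libraries had the lowest of these differences, -0.31 and -0.36. Hormone transcripts that define islet cells were low, with insulin (INS) at 0.652 to 6.25 CPM, glucagon (GCG) at 1.11 to 9.79 and somatostatin (SST) at 1.12 to 27.2. The fetal liver and yolk sac gene AFP stood at 2570 to 6982 CPM, and 18 of 19 mesenchyme markers had a median of at least 1 CPM, with none of the 19 at a median of 0.

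HOX transcripts were few and came mostly from low paralog numbers. Each library had 1466 to 2987 HOX reads, or 56.7 to 97.3 CPM before TMM scaling, with the lowest in Colchicine 1 and the highest in Ly-294002 1. Paralogs 1 to 4 gave a median of 92.4% of these reads, from 88.5% in Ly-294002 2 (95% Wilson interval 87.0% to 89.8%) to 95.3% in Vardenafil 2 (94.1% to 96.2%). Paralogs 5 to 8 gave 3.69% to 7.43%, and paralogs 9 to 13 gave 0.632% in Rottlerin 1 to 4.20% in Ly-294002 2. Weighted by exon length, paralogs 1 to 4 still made 83.8% to 93.2% of the HOX signal. The 3 classes kept this order in every library. Paralog number 1 was not high throughout: HOXB1 had 65 reads and HOXD1 8 reads over all 16 libraries.

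By cluster, HOXA and HOXB carried most of the signal. Their summed levels were 29.7 to 41.6 CPM and 19.2 to 42.7 CPM, which were 39.6% to 59.6% and 31.7% to 48.8% of the HOX total. HOXC summed to 3.32 to 12.6 CPM and HOXD to 0.363 to 3.46 CPM. The ranges of HOXA and HOXB overlapped across libraries, and the highest HOXD sum was just above the lowest HOXC sum.

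Of the 39 genes, 8 had a median of at least 1 CPM, among them HOXA2, HOXA3, HOXB2, HOXB3, HOXB4, HOXB5 and HOXC4. Another 13 had a median between 0.1 and 1 CPM and 18 one under 0.1 CPM. HOXB13 and HOXC9 had no read in any library, and 7 genes had fewer than 3 reads in every library. HOXB5 at 1.01 CPM lay just inside the limit of 1 CPM and HOXC6 at 0.798 CPM just outside it. After the filter on low counts 21 genes could be tested, 8 of HOXA, 7 of HOXB, 3 of HOXC and 3 of HOXD. A gene can pass this filter through 1 treatment group alone, so the 21 are not taken to stand for all 39.

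**Figure D1:**
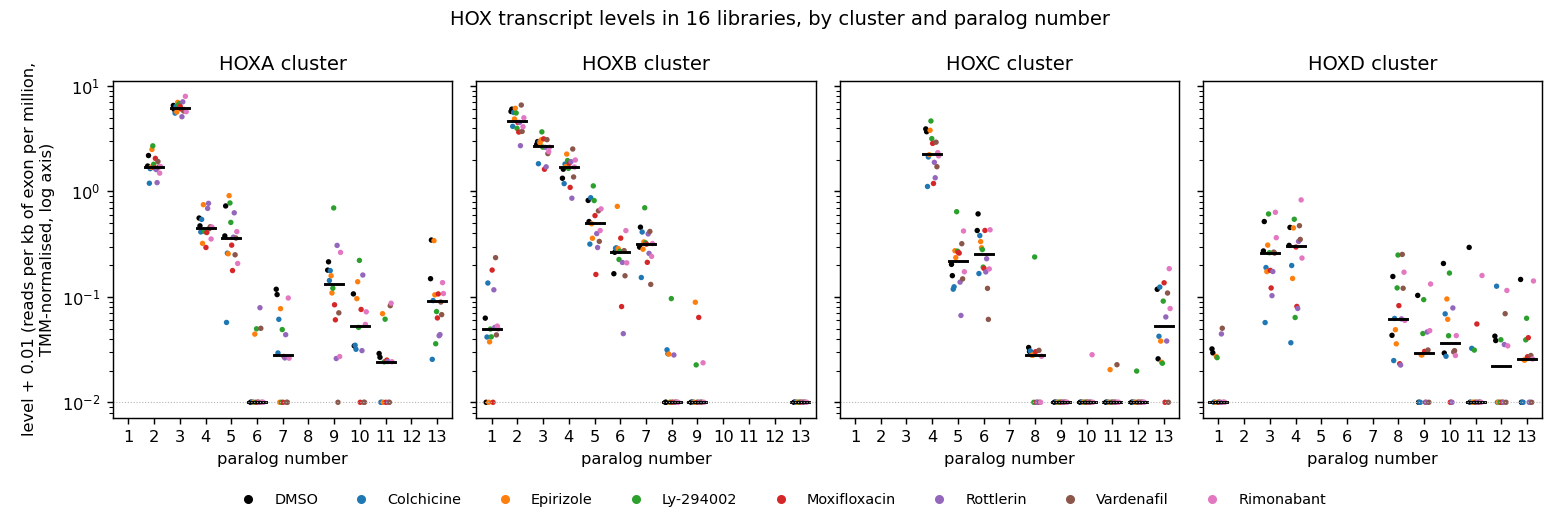
Level of 38 of the 39 HOX genes in the 16 libraries, as TMM-normalised RPKM (CPM per kilobase of exon) plus 0.01 on a log axis, by paralog number in 4 panels for the 4 clusters. Points are libraries coloured by treatment and black bars are medians over the 16. HOXA3 is highest at a median of 6.21, and the highest median of each cluster is at a paralog number of 4 or below, with HOXB1 at 0.0395, below HOXB5, HOXB6 and HOXB7, and HOXA13 at 0.081 above its neighbour HOXA11.

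HOXA3, a gene of the pharyngeal arches and foregut derivatives, was the HOX gene with the highest level, at a median of 6.21 RPKM (range 5.10 to 7.96). Next came HOXB2 at 4.68 (2.70 to 6.58), a hindbrain gene, and HOXB3 at 2.70 (1.61 to 3.66), the HOXB paralog of HOXA3. HOXC4 stood at 2.27 (1.10 to 4.64). HOXA2 and HOXB4 both had 1.70, with ranges of 1.18 to 2.69 and 0.852 to 2.51. HOXB5 was the lowest of the 8 at 0.495 (0.153 to 1.12). The library ranges of each pair of these genes next to each other in order overlapped, so the order is that of the medians.

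The levels of HOXD3 and HOXD4 depend on how shared exons are counted. HOXD3 and HOXD4 had medians of 0.251 and 0.292 RPKM over their full exon length. In GENCODE 29 another transcript model on the same strand, a gene with no row in the deposited table, covers 88.5% of the exon bases of HOXD3 and 80.5% of those of HOXD4. Divided by the exon bases that no other gene shares, the same reads gave 2.26 for HOXD3 and 1.5 for HOXD4, in the range of the 8 genes above. HOXC4 moved to 2.89 and HOXA3 to 6.89 in this way, so HOXA3 kept the highest value. The unshared length fits only where reads over shared exons were left uncounted. The deposited table keeps rows for genes with 0 reads, such as AC009336.3, but has none for the model over HOXD3 and HOXD4. If that model was missing from the annotation used for counting, the full length fits these 2 genes. The annotation and the assignment of reads over shared exons are not given in the sources used here. HOXC4 and HOXC6 share 484 exon bases, and their counts are uncertain to that extent.

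HOXA3 was also steady across the libraries. Its levels were 23.9 and 21.9 CPM in DMSO, 20.2 and 23.4 in Colchicine, 20.7 and 25.6 in Epirizole and 24.3 and 24.9 in Ly-294002. They were 23.5 and 22.2 in Moxifloxacin, 18.7 and 25.9 in Rottlerin, 21.2 and 21.9 in Vardenafil and 29.2 and 20.9 in Rimonabant. The highest library was 1.56 times the lowest. Over the 8592 tested genes with medians of 2 to 30 CPM the median ratio was 1.86. HOXA3, at a median of 22.8 CPM, lies in the upper part of that band. Genes lower in the band carry more counting error, so this is not a comparison with genes of similar level. The extremes, Rottlerin 1 and Rimonabant 1, each lay away from the other library of the same treatment.

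HOXB3 varied more. It measured 17.4 and 18.5 CPM in DMSO, 11.4 and 18.5 in Colchicine, 18 and 19.2 in Epirizole, and 22.9 and 16.4 in Ly-294002. In Moxifloxacin it was 19.7 and 10.1, in Rottlerin 16.3 and 10.7, in Vardenafil 19.3 and 14.2 and in Rimonabant 14.9 and 16.4. The 2 Moxifloxacin libraries differed 1.95-fold, nearly the whole 2.27-fold range of the gene. HOXB2 had 8.94 and 9.40 CPM in DMSO, 6.45 and 8.75 in Colchicine, 7.58 and 9.57 in Epirizole and 8.64 and 6.17 in Ly-294002. It had 7.02 and 5.69 in Moxifloxacin, 7.03 and 4.22 in Rottlerin, 10.3 and 5.77 in Vardenafil and 6.39 and 7.78 in Rimonabant. Of the 14 treated libraries 12 were below both DMSO libraries, and Epirizole 2 and Vardenafil 1 were above both.

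HOXC4 had the widest range of the genes above 2 CPM, 4.21-fold. It stood at 8.85 and 8.33 CPM in DMSO, 2.50 and 4.79 in Colchicine, 5.03 and 8.59 in Epirizole, and 10.5 and 7.15 in Ly-294002. In Moxifloxacin it was 6.45 and 2.67, in Rottlerin 4.26 and 3.03, in Vardenafil 6.62 and 3.86 and in Rimonabant 5.26 and 4.90. Both libraries were below both DMSO libraries for Colchicine, Moxifloxacin, Rottlerin, Vardenafil and Rimonabant, while those of Epirizole and Ly-294002 overlapped DMSO.

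The central paralogs 5 to 8 have 11 members, of which 7 were tested and HOXB5 alone reached 1 CPM. HOXC6, a thoracic-level gene, had 1.35 and 1.96 CPM in DMSO, or 31 and 51 reads. It had 0.508 and 1.21 in Colchicine, 1.05 and 0.916 in Epirizole, 0.880 and 0.589 in Ly-294002 and 0.572 and 1.35 in Moxifloxacin. It had 0.528 and 0.715 in Rottlerin, 0.359 and 0.166 in Vardenafil, or 9 and 4 reads, and 0.565 and 1.37 in Rimonabant. Vardenafil held the 2 lowest values, and 12 of 14 treated libraries were below both DMSO libraries, the exceptions being Moxifloxacin 2 and Rimonabant 2. HOXB6 had 0.305 and 0.499 CPM in DMSO, 0.547 and 0.551 in Colchicine, 1.39 and 0.543 in Epirizole and 0.424 and 0.511 in Ly-294002. It had 0.687 and 0.139 in Moxifloxacin, 0.396 and 0.068 in Rottlerin, 0.518 and 0.291 in Vardenafil and 0.813 and 0.392 in Rimonabant. Both libraries of Colchicine and Epirizole were above both of DMSO, and 8 treated libraries were in all. HOXA5, named here after its values were seen, ran from 0.078 CPM in Colchicine 1 to 1.49 in Epirizole 2. HOXA6 and HOXB8 were at a median of 0.

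Among paralogs 9 to 13, 3 of 16 members were tested, HOXA9, HOXA10 and HOXA13, and none reached a median of 1 CPM. HOXA13, which marks the hindgut, the cloaca and the distal limb, had the highest CPM of the 16 at a median of 0.406, while per kilobase HOXA9 was highest at 0.122 and HOXA13 had 0.081. HOXA13 had 16 and 44 reads in DMSO, or 0.697 and 1.69 CPM. It had 0.078 and 0.413 CPM in Colchicine, 1.67 and 0.475 in Epirizole, 0.130 and 0.314 in Ly-294002 and 0.267 and 0.486 in Moxifloxacin. It had 0.165 and 0.170 in Rottlerin, 0.399 and 0.291 in Vardenafil and 0.636 and 0.490 in Rimonabant. Of the 14 treated libraries 13 were below both DMSO libraries and Epirizole 1, with 49 reads, lay between them. In all 16 libraries the gene had 230 reads, and 40.4% came from Epirizole 1 and DMSO 2. The other members with number 13 were lower, HOXC13 with 63 reads and HOXD13 with 28 in all, and HOXB13 with 0.

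HOXD3 and HOXD4 were the highest of their cluster. HOXD3 had 0.654 and 1.27 CPM in DMSO, 0.117 and 0.448 in Colchicine, 0.408 and 0.747 in Epirizole and 1.5 and 0.629 in Ly-294002. It had 0.420 and 0.278 in Moxifloxacin, 0.231 and 0.409 in Rottlerin, 0.638 and 0.623 in Vardenafil and 1.55 and 0.883 in Rimonabant. The treated libraries spread on both sides of DMSO, with Colchicine, Moxifloxacin, Rottlerin and Vardenafil wholly below it. HOXD4 had 0.436 and 0.652 CPM in DMSO, 0.039 and 0.276 in Colchicine, 0.204 and 0.645 in Epirizole and 0.782 and 0.079 in Ly-294002. It had 0.420 and 0.104 in Moxifloxacin, 0.099 and 0.477 in Rottlerin, 0.678 and 0.499 in Vardenafil and 1.20 and 0.327 in Rimonabant. Colchicine and Moxifloxacin lay wholly below DMSO, and the 2 libraries of Ly-294002 lay on opposite sides of it.

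**Figure D2:**
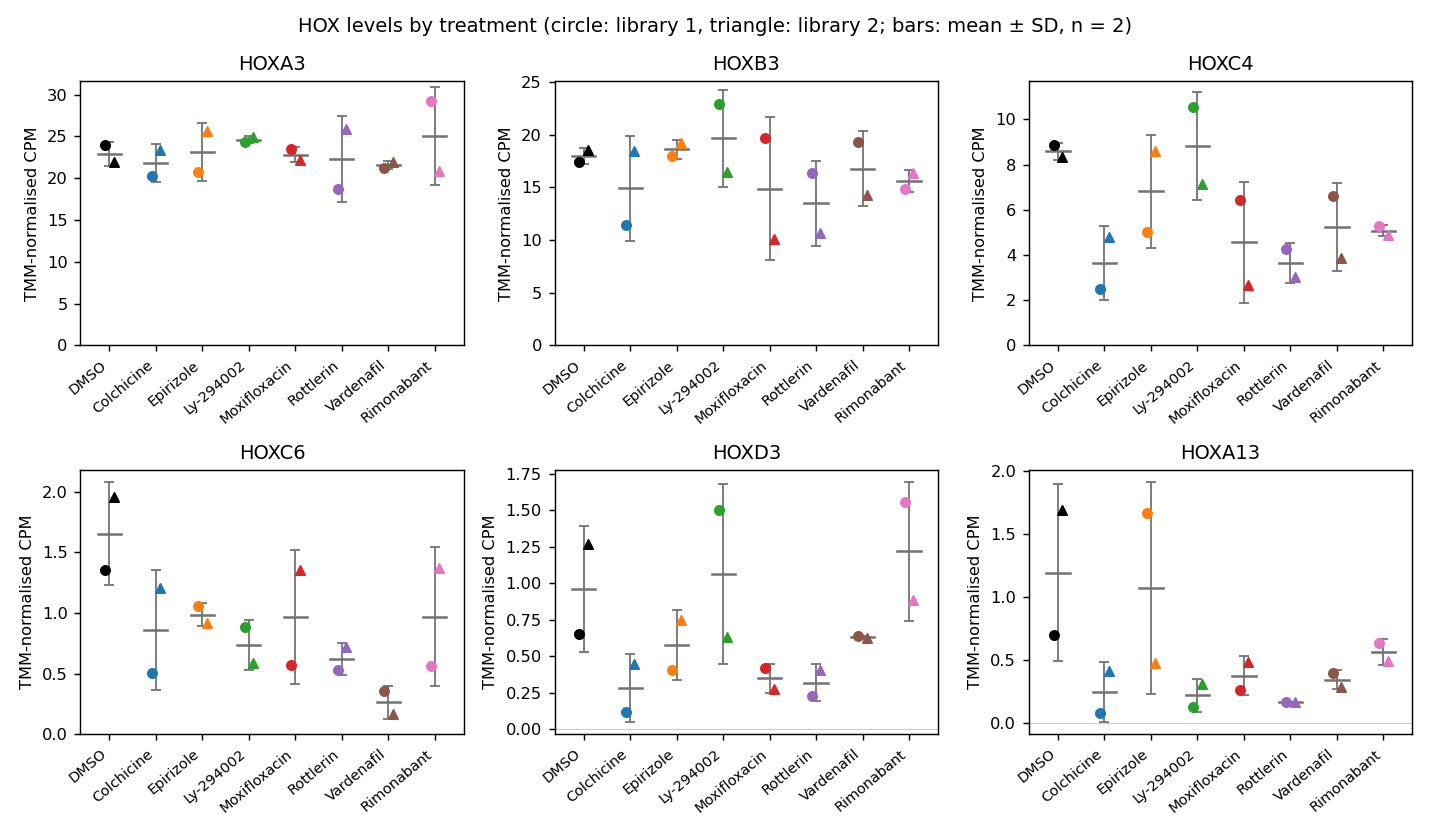
TMM-normalised CPM of HOXA3, HOXB3, HOXC4, HOXC6, HOXD3 and HOXA13 by treatment, on linear axes from 0. Circles are library 1, triangles library 2, and bars the mean ± SD of the 2. HOXA3 stays between 18.7 and 29.2 in all 16 libraries, and HOXC4 is at 8.85 and 8.33 in DMSO against 4.26 or less in both Rottlerin libraries.

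Transcripts of proteins that act with HOX proteins were present in every library, here in CPM that are not divided by length. All 9 PBX, MEIS and PREP genes, whose products bind DNA together with HOX proteins, were tested and had medians of at least 1 CPM, PBX2 at 198 CPM (180 to 222) and MEIS2 at 144 (108 to 193) among them. Of the ParaHox and posterior gut genes, CDX2, which regulates HOX genes in the intestine, stood at 99.9 CPM (68.3 to 122.5) and PDX1, the pancreatic and duodenal factor, at 40.4 (22.7 to 53.7), while CDX4 had a median of 0. Of 18 retinoic acid genes 17 were tested, with the receptor RXRA at 125 CPM and the enzyme ALDH1A1, which makes retinoic acid, at 100.02. All 23 Polycomb and trithorax genes, which keep HOX clusters silent or active, had medians of at least 1 CPM.

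Of these 4 lists, members passed the test only in Rimonabant. RXRA rose there by 0.53 ± 0.12 (log2, SE; edgeR adjusted p = 0.0205) as 1 of 17 retinoic acid genes. Of the 23 Polycomb and trithorax genes, 3 rose and 3 fell in edgeR, among them PHC3 at -0.37 (adjusted p = 0.0171), RNF2 at -0.45 (0.0236), SUZ12 at -0.38 (0.0262) and MEN1 at 0.59 (0.0299). In that comparison 7.8% of all genes tested passed. Over all 15 lists 13 genes passed. With an offset for GC content 0 of the 13 did, at a smallest edgeR adjusted p of 0.27. The share of all genes passing with that offset is not given here, so this loss is not read as particular to the 13. With the offset RXRA was at 0.03, PHC3 at -0.15, RNF2 at -0.24, SUZ12 at -0.10 and MEN1 at 0.15. Without Rimonabant 2 they were at 0.31, -0.30, -0.33, -0.33 and 0.44 in that order. Without Rimonabant 1 they were at 0.73, -0.43, -0.58, -0.42 and 0.73.

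Noncoding RNAs of the clusters were low, also beside some HOX genes of low paralog number. Of 27 listed names 21 had a row and 6 were tested. HOXA-AS2, which lies opposite HOXA3 and HOXA4, had a median of 3.79 CPM. HOTAIRM1, transcribed from the start of the HOXA cluster, had 2.43 and HOXB-AS1, opposite HOXB2 and HOXB3, 1.27. HOXB-AS3, opposite HOXB3 and HOXB6, had a median of 0.185 CPM and HAGLR, opposite HOXD3, 0.103. HOTAIR in the posterior HOXC cluster and HOTTIP beside HOXA13 had medians of 0, with at most 1 and 4 reads in a library. Whether the counting used strand is not given in the sources used here, so reads from a HOX gene and its antisense partner cannot be told apart where they overlap.

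Promoter windows of 300 bases, 250 before and 50 after each start, were found in the RefSeq table (GRCh38.p14) for 20 of the 39 genes, 27 windows in all. HOXA3 had 7 of them, with starts spread over 38741 bases. HOXC4 and HOXC5 have the same window (chr12:54016638-54016937, plus strand), which lies within the span of the HOXC6 gene (53990624 to 54030823). The 5 patterns of letters were searched on both strands, and a match is no more than that. The CDX-like and TATA patterns below can overlap, since TTTATAG holds the reverse complement of TATAAA. A HOX-PBX composite, TGATNNAT, was in 3 of the 27 windows, against 7.4% of 35116 windows of all genes, and a CDX-like motif, TTTATNG, was in 7 against 9.73%, the shared HOXC4 and HOXC5 window and windows of HOXA3, HOXA9, HOXA10 and HOXD8 among them. The TATA box, TATAAA, was in 5 against 11.5%, in windows of HOXA3, HOXA9, HOXA10 and HOXD13. These 27 windows are not independent, since some genes have several and 1 window counts for a pair of genes. Direct repeats of the retinoic acid receptor type, 2 copies of AGGTCA or 2 of AGTTCA with 5 bases between them, were each in 0 of the 27 and in 0.01% of all windows.

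Each compound, the mean of the 7 and the 7 jointly were compared with DMSO. Across 9 tests in edgeR (quasi-likelihood, adjusted over 24515 genes), 0 of the 21 tested HOX genes passed an adjusted p of 0.05 in any. The compounds share the 2 DMSO libraries, so their changes are not independent of each other. Each compound had 1 dose, so the groups are given side by side and no compound was tested against another.

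Against DMSO, Colchicine changed 0 of 21 HOX genes in edgeR, where 0.196% of all tested genes passed. An unadjusted p under 0.05 was found for 4, all lower (17.5% of all genes, 8.52% lower and 9.01% higher), and DESeq2 called 1, HOXC4, where it called 5.98% of all genes. HOXC4 had a log2 change of -1.23 ± 0.43 (SE, 2 libraries against 2; edgeR adjusted p = 0.165, DESeq2 adjusted p = 0.0438). The other 3 were HOXA13 at -2.23 ± 0.76, HOXD3 at -1.73 ± 0.65 and HOXA5 at -1.83 ± 0.75, on 2 to 13 reads a Colchicine library. Without Colchicine 2 these 4 ranged from -1.78 for HOXC4 to -3.86 for HOXA13, and without Colchicine 1 HOXC4, HOXA5 and HOXD3 were at -0.84, -1.12 and -1.10. HOXA13 was at -1.46 without DMSO 2, with all edgeR adjusted p-values above 0.05. Both libraries were below both DMSO libraries for 10 genes (25.8% of all tested genes) and above for 1 (24.5%).

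Rottlerin also changed 0 of 21 in edgeR, with 0.00816% of all genes passing. An unadjusted p under 0.05 was found for 5, all lower (14.8% of all genes, 6.48% lower and 8.3% higher), and DESeq2 called HOXC4, where 4.82% of all genes passed. The 5 were HOXA13 at -2.81 ± 0.79 (adjusted p = 0.122), HOXC4 at -1.24 ± 0.43 (0.206; DESeq2 0.0476), HOXC6 at -1.41 ± 0.56, HOXD3 at -1.58 ± 0.64 and HOXB2 at -0.70 ± 0.30 in edgeR. HOXB2 was at -0.38 without Rottlerin 2 and -1.11 without Rottlerin 1, and HOXD3 at -1.02 without DMSO 2. Both libraries lay below DMSO for 10 genes (24.4% of all) and above it for 1 (23.6%).

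Moxifloxacin and Vardenafil changed 0 of 21 each in edgeR and in DESeq2, where 0.0% of all genes passed in edgeR for both, and 0.347% and 0.00816% in DESeq2. In Moxifloxacin 2 HOX genes had an unadjusted p under 0.05, both lower (11.9% of all genes, 5.85% lower and 6.01% higher), HOXA13 at -1.65 ± 0.72 and HOXD3 at -1.46 ± 0.64. Without DMSO 2 they were at -0.87 and -0.91. In Vardenafil there were 3, all lower (5.22% of all, 2.45% lower and 2.77% higher). HOXC6 at -2.63 ± 0.63 had the smallest p of any HOX gene in any comparison, 0.000779, and an edgeR adjusted p of 0.89. HOXA13 stood at -1.78 ± 0.74, and at -1.01 without DMSO 2. HOXA10 had 0 reads in both Vardenafil libraries against 0.305 and 0.077 CPM in DMSO, so no fold is given. Both libraries were below DMSO for 8 genes in Moxifloxacin (24.4% of all) and 9 in Vardenafil (20.0%), and above it for 1 (23.2%) and 0 (19.4%).

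Ly-294002 and Epirizole changed 0 of 21 each in edgeR and in DESeq2, with 0.0% of all genes passing either. Ly-294002 had 2 HOX genes with an unadjusted p under 0.05 (4.69% of all, 2.25% lower and 2.44% higher), HOXA13 at -2.44 ± 0.77 and HOXC5 at 1.39 ± 0.65, both with an edgeR adjusted p of 0.969. Without Ly-294002 1 HOXC5 was at 0.61. Epirizole had 0 (5.26% of all, 2.17% lower and 3.09% higher). Its smallest p was that of HOXB6, at 1.25 ± 0.75 (edgeR adjusted p = 0.901), and 0.42 without Epirizole 1. In each of these groups 4 genes were below DMSO in both libraries and 3 above, against 19.5% and 19.5% of all genes in Ly-294002 and 19.0% and 19.0% in Epirizole.

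Rimonabant changed 0 of 21 in edgeR and in DESeq2, although 7.8% and 20.9% of all genes passed there. No HOX gene had an unadjusted p under 0.05, as did 24.8% of all genes, 11.3% lower and 13.5% higher. HOXC4 had the smallest p, 0.0984, at a log2 change of -0.76 ± 0.42 (edgeR adjusted p = 0.304), and -0.70 without Rimonabant 2. Both libraries lay below DMSO for 6 genes (26.4% of all) and above it for 1 (26.8%).

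More than 10 of the 21 tested HOX genes lay below DMSO in 6 of the 7 compounds, and none passed the test in edgeR. Of the 21 tested genes 17 were below DMSO in Colchicine, 18 in Moxifloxacin, 18 in Rottlerin, 14 in Vardenafil, 13 in Rimonabant, 12 in Epirizole and 6 in Ly-294002. Their median log2 changes were -0.42, -0.56, -0.48, -0.19, -0.20, -0.16 and 0.20 in that order, against medians of -0.011 to 0.0036 over all tested genes. Leaving out 1 library turned the sign of 2 of these medians, Epirizole to 0.10 without Epirizole 1 and Ly-294002 to -0.13 without Ly-294002 1. Other medians kept their sign but moved by over 1.5 times, to -0.72 in Colchicine without Colchicine 2, -0.75 in Rottlerin without Rottlerin 1, -0.47 in Vardenafil without Vardenafil 1 and -0.39 in Rimonabant without Rimonabant 2. In Moxifloxacin the median was -0.85 without Moxifloxacin 1 and -0.32 without Moxifloxacin 2. With the mean of the 7 compounds against DMSO, the median was -0.35, and -0.11 without DMSO 2. Mesenchyme markers, none of which passed the test, lay below DMSO for 17 of 19 in Colchicine, 16 in Moxifloxacin, 16 in Rottlerin, 17 in Vardenafil, 9 in Rimonabant, 9 in Epirizole and 5 in Ly-294002. Their medians were -0.77, -0.64, -0.67, -0.37, 0.04, 0.05 and 0.23 in that order, and their part in the HOX changes was not tested.

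In that mean contrast 0 of 21 passed in edgeR and 0 in DESeq2, where 0.0% and 5.65% of all genes passed. An unadjusted p under 0.05 was found for 3, all lower (16.6% of all, 8.21% lower and 8.44% higher). They were HOXA13 at -1.74 ± 0.48 (edgeR adjusted p = 0.114), HOXC6 at -1.20 ± 0.38 (0.146) and HOXC4 at -0.73 ± 0.30 (0.247). HOXA13 was at -0.96 without DMSO 2, which held 44 of the 60 DMSO reads of the gene, and HOXC6 at -0.91. In the joint test of all 7 compounds 0 of 21 passed in edgeR (0.00408% of all genes) and 1, HOXC4, in DESeq2 (7.0%), with unadjusted p-values under 0.05 for HOXA13, HOXC6 and HOXD3 (12.9% of all). Being below both DMSO libraries in 13 of 14 treated libraries, as HOXA13 was, held for at least that many in 7.45% of all tested genes. At least 12 of 14, as for HOXB2, HOXC4 and HOXC6, held for 12%.

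The DMSO libraries had the lowest GC differences, so each comparison with DMSO also set libraries of differing base composition against each other. Tested HOX genes had a median GC content of 54.5% (43.7% in HOXA13 to 61.3% in HOXB3), against 48.9% over all tested genes. With an offset for GC content the mean contrast gave HOXA13 -1.63, HOXC6 -1.27 and HOXC4 -0.82, and 0 HOX genes passed in any comparison. In Rimonabant this offset took the HOX median from -0.20 to -0.33.

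**Figure D3:**
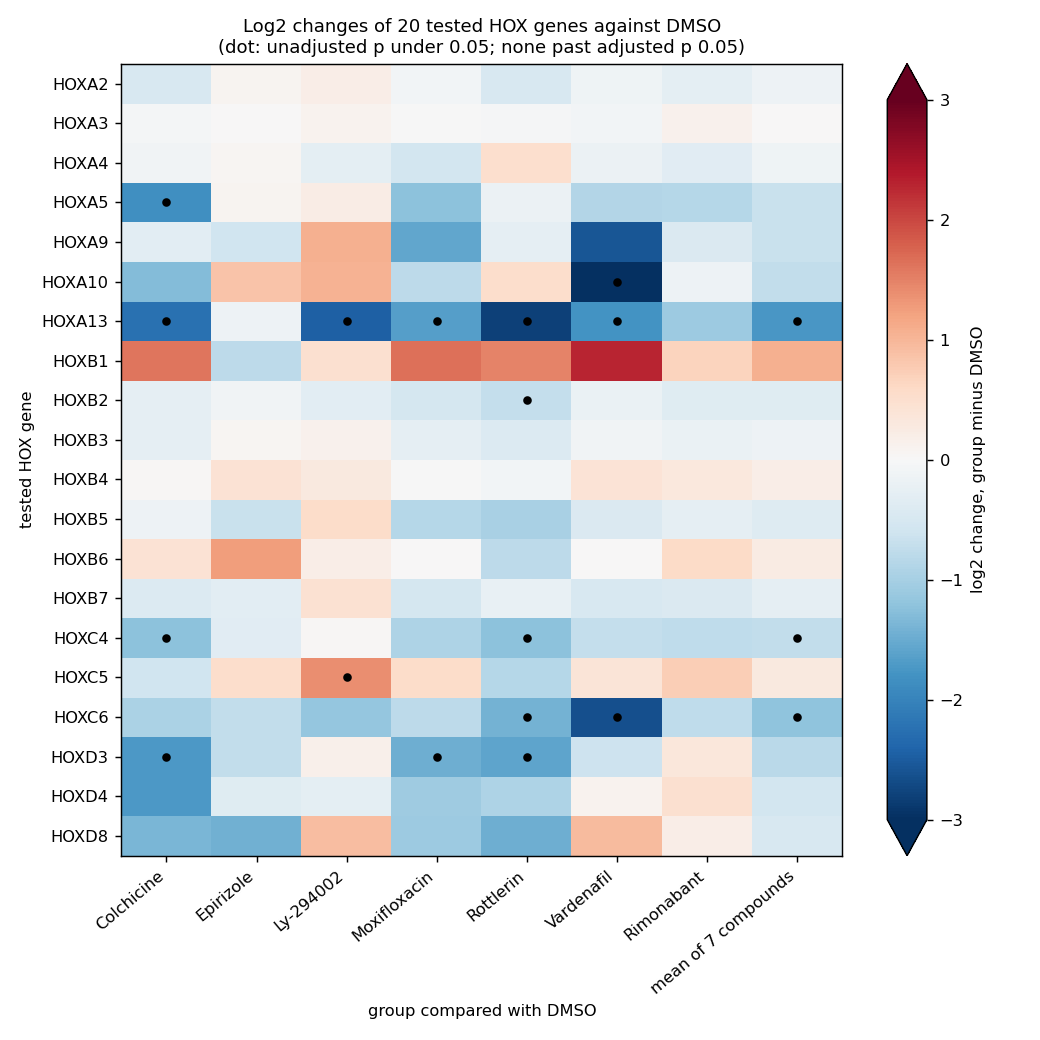
Log2 changes of 20 of the 21 tested HOX genes, group minus DMSO, for the 7 compounds and their mean. Colour runs from -3 (blue) to 3 (red), and black dots mark an unadjusted p under 0.05. HOXA13 is negative in all 8 columns, HOXA3 is within 0.13 of 0 in all, and HOXB4 is above 0 in the mean column.

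Among the tested HOX genes, HOXB4, HOXB6 and HOXC5 lay above both DMSO libraries most often. HOXB4 was above both DMSO libraries, 4.97 and 6.06 CPM, in 10 of 14 treated libraries and below both in 3, and at least 10 above held for 20.7% of all genes. It ran from 3.20 in Rottlerin 2 to 9.45 in Vardenafil 1. HOXB6 and HOXC5 were each above in 8 and below in 3 and 5, and at least 8 above held for 30.3% of all genes. Such counts were common among all genes, so they are not read as a result about these members. These genes were named after their values were seen. HOXB4 and HOXB6 had no unadjusted p under 0.05 in any edgeR comparison, and HOXC5 had such a p only in Ly-294002.

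Across the 16 libraries HOXB3 varied together with HOXB2, HOXB4, HOXB5 and HOXC4, and no pair with HOXA3 passed the test. All 28 pairs of the 8 genes with a median of at least 1 CPM were compared on log2 CPM, with permutation tests adjusted over the 28. The permutations, here and below, moved all 16 libraries freely. Their p-values thus treat the 2 libraries of a treatment as independent, which the labels do not settle. There were 9 pairs with adjusted p-values under 0.05 by both Pearson's r and Spearman's rho. HOXB3 and HOXC4, in different clusters, were closest at r = 0.879 and rho = 0.794 (permutation test, adjusted p = 0.00028 and 0.0122), and r = 0.831 without the 2 libraries farthest from the HOXB3 median. Within treatments, after taking out each treatment's mean, r was 0.917. HOXB3 with HOXB4, of which 603 exon bases are shared with HOXB3 or other genes, gave r = 0.836 and rho = 0.715 (permutation test, adjusted p = 0.0009 and 0.0218; r = 0.684 without 2 libraries), and with HOXB2 r = 0.801 and rho = 0.765 (0.0009 and 0.0122; 0.734). HOXB2, HOXB3 and HOXB4 differed in the same direction between the 2 libraries of all 8 treatments. HOXB2 with HOXB4 and HOXC4, HOXB5 with HOXB3 and HOXC4, and HOXA2 with HOXC4 (r = 0.701 and rho = 0.668; permutation test, adjusted p = 0.0086 and 0.0243; r = 0.551 without 2 libraries) also passed. Of the 10 pairs among HOXB2, HOXB3, HOXB4, HOXB5 and HOXC4, those of HOXB5 with HOXB2 and HOXB4 and that of HOXB4 with HOXC4 did not pass by rho (permutation test, adjusted p = 0.0753, 0.111 and 0.115). HOXB1, HOXB6 and HOXB7 were too low to enter. HOXA3 had r from -0.17 to 0.31 with the other 7, and 0 of its 7 pairs passed. All levels of a library share its scaling and depth.

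HOXC4 also followed mesenchyme markers. Its level and the summed level of the 19 markers had r = 0.822 and rho = 0.882 (permutation test, adjusted over 40 relations, p = 0.006 and 0.0012), r = 0.809 without 2 libraries and r = 0.75 within treatments. The sums were 3917 and 3559 CPM in DMSO, 3043 and 3025 in Colchicine, 3214 and 4603 in Epirizole, 4937 and 3875 in Ly-294002, 3495 and 2435 in Moxifloxacin, 2880 and 3203 in Rottlerin, 3673 and 2749 in Vardenafil and 4222 and 3336 in Rimonabant. HOXC4 was wholly below DMSO in Colchicine, Moxifloxacin, Rottlerin, Vardenafil and Rimonabant. Of these groups, Colchicine, Moxifloxacin and Rottlerin were wholly below DMSO in this sum as well. Vardenafil and Rimonabant were not, and the Rimonabant libraries lay on both sides of DMSO. The sum is not weighted, and COL3A1 and VIM count most in it, at medians of 848 and 795 CPM against 3415 for the sum. HOXC4 went against the difference in GC by rho = -0.712 (adjusted p = 0.0375) but not by r = -0.487 (0.157), and within treatments r was -0.21, by permutation tests. In bulk RNA, fewer cells of a type and less RNA per cell cannot be told apart, and the part of mesenchyme or of GC content in the HOXC4 differences was not tested.

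HOXB2 ran against liver and gut markers, at r = -0.735 and rho = -0.791 over 17 genes' summed level (permutation test, adjusted p = 0.0218 and 0.0094; r = -0.565 without 2 libraries, -0.787 within treatments). The sums are not weighted, and AFP counts most in them, at a median of 4722 CPM against 9105 for the sum. They therefore do not speak for all 17 genes alike. The sums ran from 5973 CPM in Rimonabant 2 to 12357 in Rottlerin 2, where HOXB2 was lowest. In Rimonabant 2 HOXB2 was at 7.78 CPM, not at its highest level, which was 10.3 in Vardenafil 1. HOXB4 also ran against this sum, at r = -0.679 and rho = -0.674 (permutation test, adjusted p = 0.0552 and 0.0486). So did HOXB5, at r = -0.522 and rho = -0.668 (permutation test, adjusted p = 0.142 and 0.0486). HOXC4 with mesenchyme and HOXB2 with liver and gut were the 2 of 40 relations with both adjusted p-values under 0.05. Among 5 relations of HOX genes with neighbouring noncoding RNAs, HOXA3 and its antisense RNA HOXA-AS2 had r = -0.083 and rho = -0.088 (permutation test, adjusted p = 0.761 and 0.746). HOXB-AS1 had r = 0.571 and rho = 0.532 with HOXB2 (permutation test, adjusted p = 0.053 and 0.0595). With HOXB3 it had r = 0.475 and rho = 0.55 (0.0768 and 0.0595). HOXA2 with HOTAIRM1 had r = 0.482 and rho = 0.353 (0.0768 and 0.227).

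**Figure D4:**
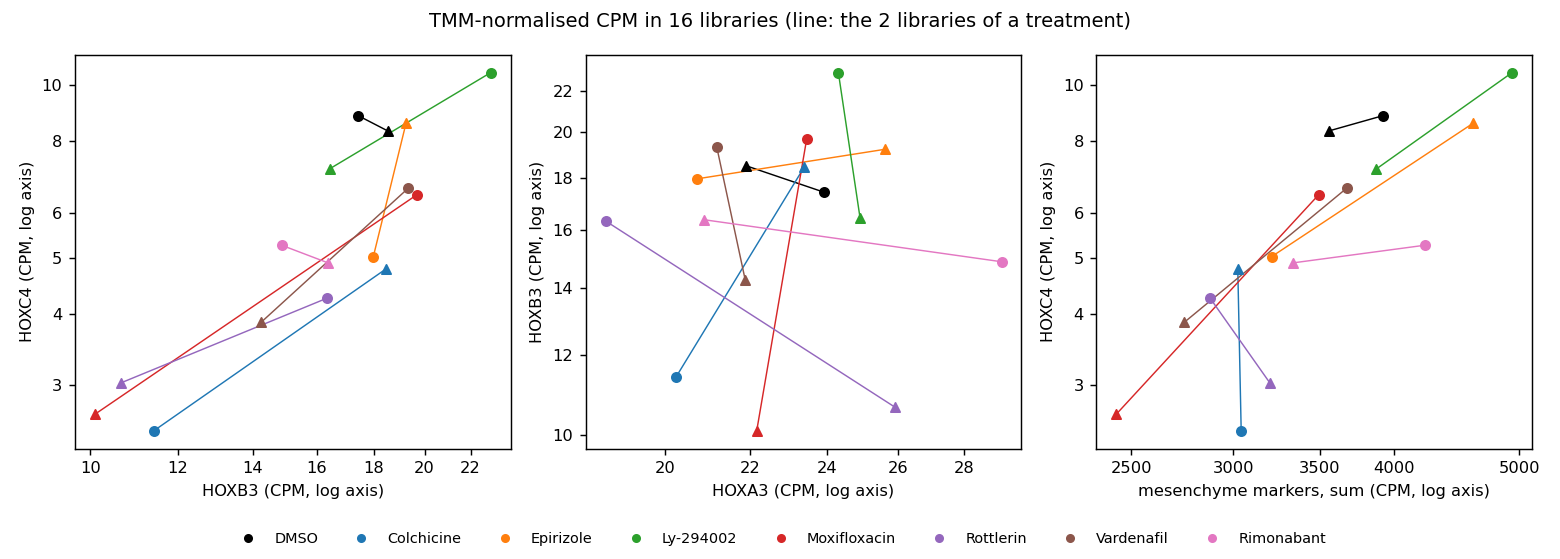
Levels in the 16 libraries as TMM-normalised CPM on log axes: HOXC4 against HOXB3 (left), HOXB3 against HOXA3 (middle) and HOXC4 against the sum of 19 mesenchyme markers (right). Circles are library 1, triangles library 2, and a line joins the 2 libraries of a treatment. HOXC4 and HOXB3 lie along a rising line (r = 0.879), while HOXB3 and HOXA3 do not (r = 0.028).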

How the data were processed

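Bulk total RNA of 16 libraries, 2 for each of 8 groups, was read from 1 gene table of raw counts that the authors deposited. Per the labels' protocols, RNA was extracted from whole cultures with an RNeasy kit, libraries came from a RiboErase-depleted KAPA HyperPrep protocol with paired reads. Trimmomatic 0.38 did the trimming, STAR 2.7.1a the alignment, and featureCounts 1.6.0 or HTSeq the counting. The submitters' processing notes name HTSeq and GRCh38. The annotation release, strand setting and treatment of multi-mapped reads are not given in the sources used here. No column was left unmapped and no row named no gene.

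From the counts, edgeR 4.0.16 (R 4.3.3; filterByExpr on the 8 groups, TMM, robust quasi-likelihood fit of all 16 libraries, 8 residual degrees of freedom, Benjamini-Hochberg over 24515 genes, threshold 0.05) tested each compound, their mean and all 7 jointly against DMSO. DESeq2 1.42.0 was an alternative, as were DESeq2's size factors, no filter on low counts, a lowess GC offset (span 0.3), a replicate block, fits of 2 groups alone and leaving out each library. The edgeR step was tested on simulated data, with changes placed only in genes of a mean above 1 CPM. That test does not cover HOX genes below this level. Exon lengths and GC came from GENCODE 29 and promoter windows from RefSeq. Correlations used 100000 permutations (scipy 1.17.1), two-sided, and shares carry 95% Wilson intervals, which cover counting error only.

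The HOX genes and the 15 context lists were chosen with earlier results of these data known. Per-library values are given for the 2 highest genes of each cluster per kilobase and for the HOX gene with the smallest p in each comparison, apart from what is not reported here, and from each context list for genes past the threshold (at most 4 by p) or the 2 highest. The division of exon length into shared and unshared bases was chosen after seeing the data. Some genes and sequences enter the totals and fits and are left out of the text.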

Additional observations from a re-analysis of the deposited data

How the results depend on the processing

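Of the 9 tests, the count of HOX genes past the threshold stayed at 0 with DESeq2's size factors, the GC offset (alone or with the block), fits of the 2 groups alone and, in every run, without 1 library (range 0 to 0). DESeq2 called 1 gene in Colchicine, 1 in Rottlerin and 1 in the joint test, HOXC4 each time. With no filter on low counts edgeR called 2 in Colchicine, 1 in Moxifloxacin, 2 in Rottlerin, 1 in Vardenafil, 3 in the mean of 7 compounds and 5 in the joint test, where HOXA13, HOXC4, HOXC6, HOXA9 and HOXD3 are the genes. That setting tested 44689 genes and called 1568 in Colchicine against 48 with the filter, 3.51% against 0.196%, and the cause was not tested. Of all genes this setting called 1.66% in Moxifloxacin, 2.41% in Rottlerin, 0.253% in Vardenafil, 2.5% in the mean and 6.76% in the joint test. In Epirizole, Ly-294002 and Rimonabant the shares were 0.0738%, 0.378% and 6.01%. The number of HOX genes tested without the filter is not given here, so their counts cannot be read as above or below these shares. The 2 libraries of a group share only a number across groups (28 pairs of groups, correlation of deviations -0.28 to 0.23), and a fit with a replicate block called 0 HOX genes in each of the 9 tests, and 1090 genes in all in Rimonabant against 1913. At a limit of 0.5 CPM 13 HOX genes counted as present and at 2 CPM 7, against 8 at 1 CPM. With unshared exon bases HOXC5 took the place of HOXC6 among the 2 highest of its cluster. Depth limits all members under about 1 CPM.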

Other observations

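Reads of posterior HOX genes and of the central gene HOXC8 were uneven between libraries of the same treatment, in genes named after their values were seen and, apart from HOXA9 and HOXA10, too low to test. Ly-294002 2 held 36 of 140 reads of HOXA9, 17 of 86 of HOXA10 and 11 of 20 of HOXC8, while Ly-294002 1 had 0.228, 0.13 and 0 CPM of these genes against 1.41, 0.668 and 0.432. HOXD11 had 21 reads in all, 10 of them in DMSO 1 and 7 in Rimonabant 2. HOXD13 had 28, with 9 in Rimonabant 2 and 7 in DMSO 1. HOXB9 had 12, with 6 in Epirizole 2 and 4 in Moxifloxacin 2. In each case the other library of the treatment had 0 or 1 read of HOXD11, HOXD13 or HOXB9.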
